A study of Mus musculus with 8 samples.

Results

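Endothelial cells line the blood vessels that grow across the inner retina in the first postnatal week of the mouse, and 34 genes of endothelial identity and of the blood-retina barrier were followed here. They were chosen by symbol, and all 34 were found among the 16109 genes of the deposited count table. Messenger RNA was profiled from retinas at postnatal day 5, with 4 libraries labelled C3 KO and 4 labelled WT, all from C57BL/6 mice, to compare complement C3 deficient and wild-type animals during retinal vascular development. Complement C3 is the protein on which the activation routes of complement converge. The sources used here name neither the allele behind the C3 KO label nor the number of animals behind each library, so p-values measure the spread between libraries. The embryonic hyaloid vessels had been dissected away. In such bulk samples fewer endothelial cells and less RNA per endothelial cell cannot be told apart.

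Endothelial cells are held together by adherens junctions built on VE-cadherin and by tight junctions that contain claudin-5, and in the retina these junctions, together with low vesicular transport, form the inner blood-retina barrier. Transcription factors of the ETS, SOXF and TAL families switch on the genes that make a cell endothelial. In the mouse retina the barrier matures while the superficial vessel layer spreads from the optic nerve head, and norrin signalling in endothelial cells promotes claudin-5 and represses the diaphragm protein Plvap.

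The labels have a limit that touches every direction below. C3 itself was 1718, 1585, 1550 and 1419 reads in C3 KO replicates 1 to 4, against 52, 45, 33 and 55 reads in WT replicates 1 to 4, the reverse of what the labels name. Sex-linked transcripts moved with the labels too. Xist ran from 1.48 to 2.65 CPM (read counts scaled to a common library size by edgeR's TMM method) in C3 KO-labelled libraries and from 295 to 2441 CPM in WT-labelled ones. The mean level of 4 Y-linked genes was 6.16 to 6.37 log2 CPM in C3 KO-labelled libraries, and -1.01, 2.29, 6.18 and 1.90 log2 CPM in WT replicates 1 to 4. WT replicates 2, 3 and 4 thus held Y-linked reads beside Xist, and only WT replicate 3 reached the Y-linked level of the C3 KO-labelled libraries. Every direction below therefore compares labels, C3 KO over WT. Totals lay between 16503564 and 19608824 reads.

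The 250 bases upstream of the start site of 3 of these genes are shown from RefSeq on build GRCm38.p6, because Emcn had the largest fold change among the 34 and Cldn5 and Mfsd2a are the barrier genes used in ratios below. Sequences run 5′ to 3′ on the gene's strand, and capitals mark GGAA, the core that ETS factors bind, or TTCC, its reverse complement.
Emcn, plus strand, chr3:137340828-137341077: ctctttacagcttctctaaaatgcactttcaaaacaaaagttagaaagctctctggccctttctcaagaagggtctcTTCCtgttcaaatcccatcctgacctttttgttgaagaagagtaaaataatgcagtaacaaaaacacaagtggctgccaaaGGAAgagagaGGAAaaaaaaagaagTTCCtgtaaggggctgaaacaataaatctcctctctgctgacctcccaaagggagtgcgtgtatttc
Cldn5, plus strand, chr16:18776597-18776846: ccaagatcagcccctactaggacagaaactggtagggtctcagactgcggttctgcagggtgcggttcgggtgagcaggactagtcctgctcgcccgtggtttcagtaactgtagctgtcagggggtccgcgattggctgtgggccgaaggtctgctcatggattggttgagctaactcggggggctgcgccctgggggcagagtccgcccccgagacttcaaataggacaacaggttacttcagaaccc
Mfsd2a, minus strand, chr4:122961189-122961438: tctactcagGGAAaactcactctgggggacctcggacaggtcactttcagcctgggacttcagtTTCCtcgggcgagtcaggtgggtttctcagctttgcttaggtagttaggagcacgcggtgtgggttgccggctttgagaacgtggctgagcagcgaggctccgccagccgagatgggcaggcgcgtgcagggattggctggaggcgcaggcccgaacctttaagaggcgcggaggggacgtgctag
The Emcn window held 4 GGAA cores, that of Mfsd2a 2 and that of Cldn5 0. Windows were on hand for 18 of the 34 genes. On either strand GGAA was in 16 of 18 (88.9%), against 93.4% of 27025 windows of that length over all genes. The longer form AGGAAG, or CTTCCT, which contains that core, was in 9 of 18, against 29.2% of all windows. Those genes were Cd34, Egfl7, Eng, Emcn, Eltd1, Rasip1, Ushbp1, Robo4 and Gpr116. The SOX sequence AACAAT, or ATTGTT, was in 2 of 18 (11.1%), Emcn and Ushbp1, against 9.6% of all windows. These are matches of letters and were not tested for binding.

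Few of the endothelial genes passed the test. At an edgeR adjusted p below 0.05, the C3 KO-labelled libraries were higher for 1 of 34 genes and lower for 0, which is 2.94% called. DESeq2 and limma-voom also called 1 higher and 0 lower, the same gene. Over all 15850 genes tested, 14.3% were called, 8.33% higher and 5.98% lower. At an unadjusted p below 0.05 the counts were 5 of 34 (14.7%) against 28.6% of all genes. Groups without overlap were seen for 1 of the 34, against 17.4% of all genes. The median log2 fold change of the 34 genes was 0.10, against 0.00 over all genes, with 23 positive and 11 negative values. Positive values thus made up 67.6% of the endothelial genes and 50.9% of all genes. The errors of the endothelial genes were wider, with a median standard error (SE) of 0.16 on the log2 scale against 0.08 over all genes. Their median absolute log2 fold change was 0.16, against 0.12 over all genes. The lower share of calls therefore does not show that these genes differed less than others, and that difference was not tested.

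**Figure D1:**
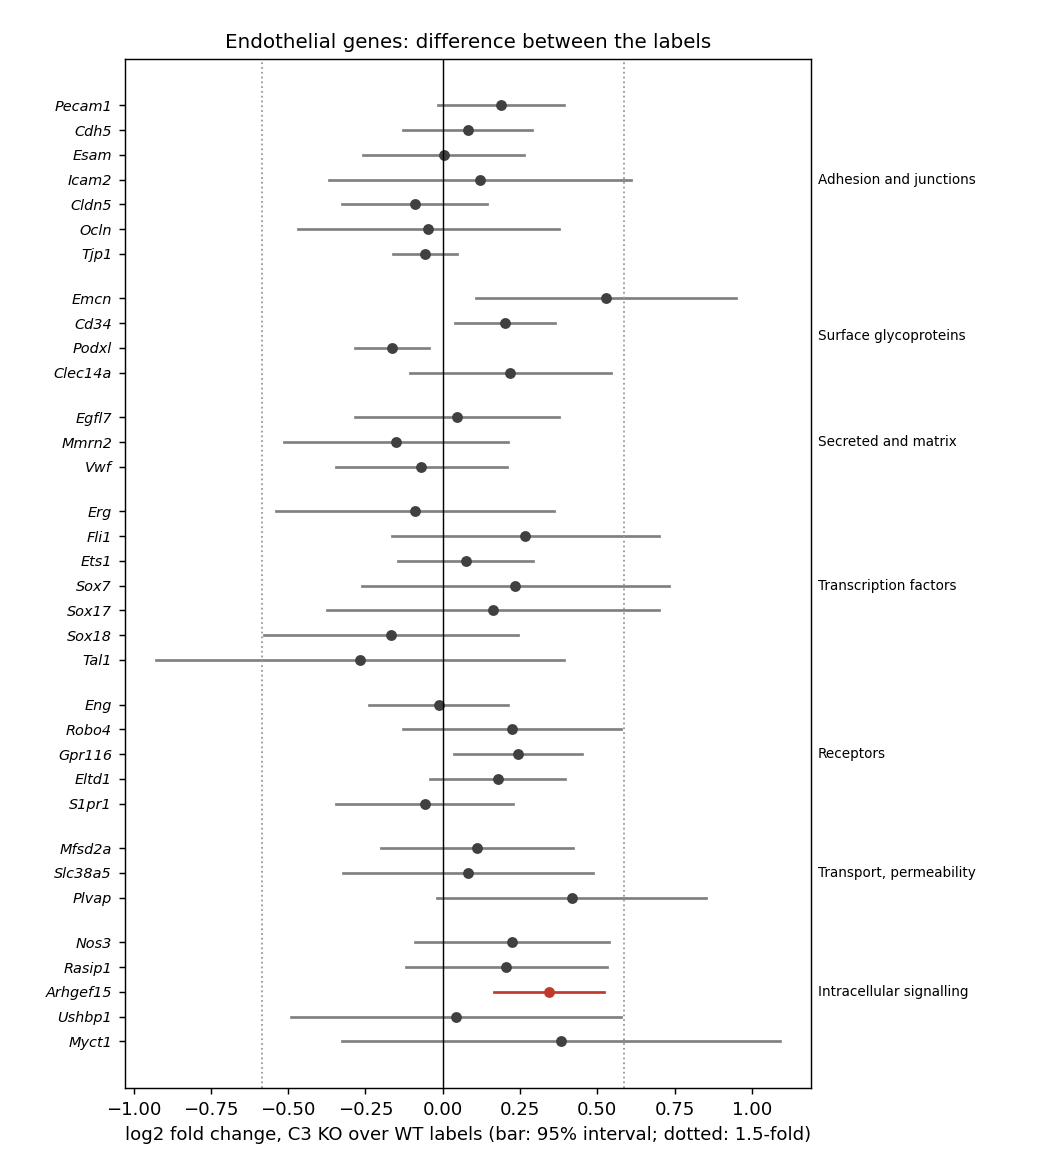
Log2 fold change of the 34 genes in libraries labelled C3 KO over libraries labelled WT (x axis), grouped by role, with 95% intervals as bars and 1.5-fold changes as dotted lines. The called gene, Arhgef15, is drawn in red, and the bars of 26 of the 34 genes lie inside the dotted lines.

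The 95% intervals give the precision of these differences. The interval lay within 1.25-fold in both directions for 6 of 34 genes, within 1.5-fold for 26 and within 2-fold for 33. The exception at 2-fold was Myct1, a small endothelial membrane protein, which had 9 to 29 reads per library and a log2 interval from -0.33 to 1.09.

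Per transcript length, the 34 genes spanned a wide range of levels in these retinas. On the authors' RPKM scale, Podxl had the highest level at 46.3 ± 5.01 RPKM in C3 KO-labelled libraries and 52.2 ± 1.53 RPKM in WT-labelled libraries (SD, n = 4 each). Tjp1 followed with 23.3 ± 1.33 RPKM under the C3 KO label and 24.3 ± 1.29 RPKM under the WT label. Both proteins are known from neural and epithelial cells as well as endothelium, and together they held more reads than the other 32 genes. Cldn5 stood at 17.96 ± 2.88 RPKM under the C3 KO label and 19.2 ± 2.37 RPKM under the WT label, the highest level among genes known mainly from endothelium. Cd34 came next, at 10.8 ± 0.599 RPKM in C3 KO-labelled and 9.45 ± 0.632 RPKM in WT-labelled libraries. Cdh5 and Pecam1 averaged 5.45 and 5.03 RPKM over all 8 libraries, and Tal1 was lowest at 0.284 RPKM.

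**Figure D2:**
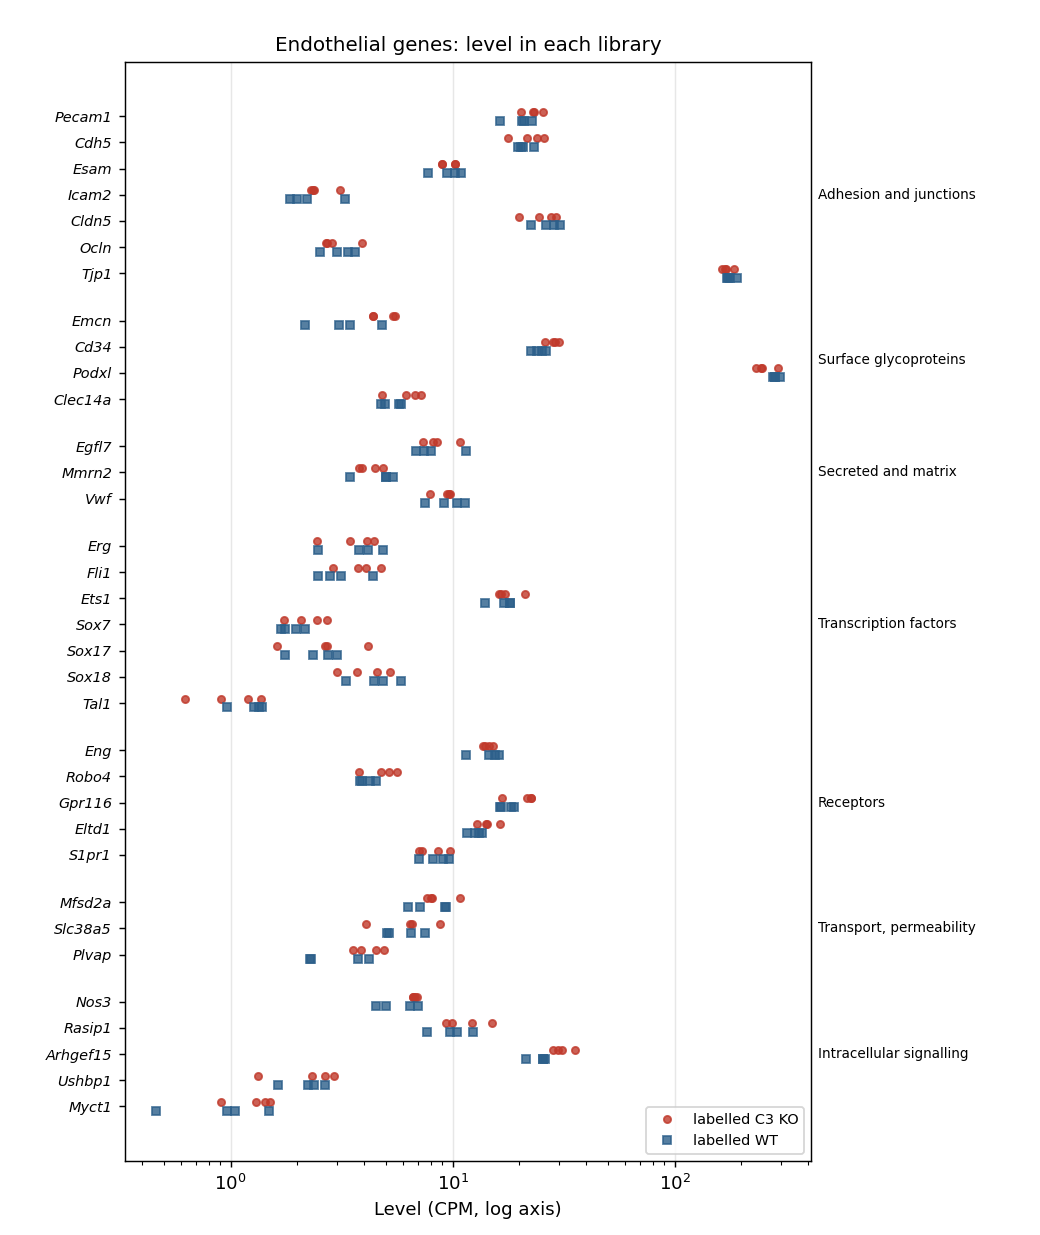
Level of each of the 34 genes in CPM (log axis) in the 4 libraries labelled C3 KO (red circles) and the 4 labelled WT (blue squares), grouped by role. The points of the labels overlap for every gene except Arhgef15, whose 4 C3 KO-labelled libraries all lie above the WT-labelled ones.

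Among the 7 adhesion and junction genes, edgeR called 0 in either direction, and 0 had an unadjusted p below 0.05, with log2 fold changes from -0.09 to 0.19. Pecam1, the platelet and endothelial adhesion molecule CD31, stood at 20.4, 23.2, 25.6 and 23.0 CPM in C3 KO replicates 1 to 4, and at 22.8, 20.5, 20.9 and 16.4 CPM in WT replicates 1 to 4. WT replicate 4 was lowest and the other ranges overlapped. Its log2 fold change was 0.19 ± 0.10 (SE), with an edgeR adjusted p = 0.207. Cdh5, which encodes VE-cadherin, the core of endothelial adherens junctions, had 17.8, 23.9, 25.7 and 21.6 CPM in C3 KO replicates 1 to 4, and 20.4, 20.7, 23.2 and 19.8 CPM in WT replicates 1 to 4. The lowest and the highest values both came from C3 KO-labelled libraries, and the log2 fold change was 0.08 ± 0.10 (SE, edgeR adjusted p = 0.652).

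Cldn5, the main claudin of barrier endothelium, had 19.9, 24.5, 27.8 and 29.3 CPM in C3 KO replicates 1 to 4, and 30.4, 28.6, 26.3 and 22.4 CPM in WT replicates 1 to 4. The labels spread over nearly the same range, and the log2 fold change was -0.09 ± 0.11 (SE, edgeR adjusted p = 0.65), with a 95% interval from -0.32 to 0.14. Tjp1, the tight junction scaffold ZO-1, which pigment epithelium and neural cells also make, stood at 163, 185, 169.9 and 169 CPM in C3 KO replicates 1 to 4, and at 174, 172, 178 and 191 CPM in WT replicates 1 to 4. Its log2 fold change was -0.06 ± 0.05 (SE, edgeR adjusted p = 0.5), with the smallest SE of the 34. Occludin (Ocln), a tight junction protein also of pigment epithelium, averaged 3.05 ± 0.587 CPM under the C3 KO label and 3.14 ± 0.469 CPM under the WT label (SD, n = 4 each). Esam, an endothelial junction adhesion molecule, averaged 9.61 ± 0.767 CPM under the C3 KO label and 9.59 ± 1.37 CPM under the WT label. Icam2, an adhesion molecule of endothelium and leukocytes, averaged 2.53 ± 0.384 CPM in C3 KO-labelled and 2.33 ± 0.637 CPM in WT-labelled libraries.

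The 4 surface glycoproteins held 3 of the 5 genes with an unadjusted p below 0.05, and none of the 4 passed adjustment over all genes. Emcn encodes endomucin, a sialomucin of venous and capillary endothelium. It stood at 5.50, 4.37, 5.36 and 4.38 CPM in C3 KO replicates 1 to 4, and at 4.82, 3.43, 3.08 and 2.17 CPM in WT replicates 1 to 4. WT replicate 1 lay among the C3 KO-labelled libraries and the other WT-labelled libraries lay below them. The log2 fold change was 0.53 ± 0.20 (SE, edgeR adjusted p = 0.0851), a 1.44-fold difference and the largest of the 34. Without the library labelled WT replicate 1 the adjusted p was 0.0127 at a log2 fold change of 0.75, and over the 8 fits that each left out 1 library it ran from 0.0127 to 0.248.

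Podxl encodes podocalyxin, a sialomucin that opens the vessel lumen and is also made by neurons. It had 245, 293, 233 and 248 CPM in C3 KO replicates 1 to 4, and 283, 298, 277 and 284 CPM in WT replicates 1 to 4. C3 KO replicate 2 lay within the WT range and the other C3 KO-labelled libraries lay below it. The log2 fold change was -0.16 ± 0.06 (SE, edgeR adjusted p = 0.0606). Without the library labelled C3 KO replicate 2 it was -0.24 with an adjusted p = 0.00167, and adjusted p-values over the 8 fits that left out 1 library reached 0.186. Cd34, a sialomucin of endothelium and blood progenitors, averaged 28.3 ± 1.63 CPM in C3 KO-labelled libraries and 24.6 ± 1.68 CPM in WT-labelled ones (SD, n = 4 each), for a log2 fold change of 0.20 with an SE of 0.08 (edgeR adjusted p = 0.0898). An antisense RNA overlaps Cd34 in the annotation, and the sources used here do not say whether reads were assigned by strand, so their reads cannot be told apart. Clec14a, an endothelial C-type lectin, had a log2 fold change of 0.22 ± 0.16 (SE).

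Of the 3 secreted and matrix genes, edgeR called 0, and 0 had an unadjusted p below 0.05. Mmrn2, a matrix protein that binds Clec14a, stood at 4.84, 3.7999, 3.89 and 4.49 CPM in C3 KO replicates 1 to 4, and at 5.02, 5.41, 5.00 and 3.44 CPM in WT replicates 1 to 4, so its ranges overlapped. Vwf, the von Willebrand factor stored in endothelial granules, had 7.94, 9.42, 9.65 and 9.77 CPM in C3 KO replicates 1 to 4, and 9.17, 11.4, 10.5 and 7.48 CPM in WT replicates 1 to 4. WT-labelled libraries thus held both its lowest and its highest value. The log2 fold changes were -0.15 ± 0.18 for Mmrn2 and -0.07 ± 0.13 for Vwf (SE). Egfl7, a secreted protein that guides tube formation, averaged 8.74 ± 1.48 CPM under the C3 KO label and 8.44 ± 2.12 CPM under the WT label (SD, n = 4 each), and its locus overlaps other annotated genes on both strands.

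The 7 transcription factors had 0 edgeR calls and 0 unadjusted p-values below 0.05, with log2 fold changes from -0.27 to 0.27 and levels below 6 CPM in every library for all except Ets1. Fli1, an ETS factor of endothelium and blood cells, stood at 4.07, 4.74, 2.88 and 3.75 CPM in C3 KO replicates 1 to 4, and at 4.36, 3.14, 2.82 and 2.47 CPM in WT replicates 1 to 4, with overlapping ranges, and its log2 fold change was 0.27 ± 0.21 (SE, edgeR adjusted p = 0.432). Erg, the ETS factor most restricted to endothelium, averaged 3.61 ± 0.876 CPM in C3 KO-labelled and 3.82 ± 1.00 CPM in WT-labelled libraries (SD, n = 4 each). Ets1, shared with lymphocytes, averaged 17.8 ± 2.29 CPM under the C3 KO label and 16.8 ± 1.93 CPM under the WT label.

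The SOXF factors Sox7, Sox17 and Sox18 act partly redundantly in vessel growth and arterial fate. Sox7 had 1.73, 2.08, 2.71 and 2.44 CPM in C3 KO replicates 1 to 4, and 2.15, 1.98, 1.75 and 1.69 CPM in WT replicates 1 to 4. Sox17 had 2.65, 1.61, 2.71 and 4.15 CPM in C3 KO replicates 1 to 4, and 3.02, 2.74, 2.34 and 1.75 CPM in WT replicates 1 to 4. For both genes the ranges overlapped, and Sox17 was spread most widely within the C3 KO label. An annotated processed transcript on the other strand overlaps Sox17. Sox18 had 3.72, 3.02, 5.25 and 4.55 CPM in C3 KO replicates 1 to 4, and 5.84, 4.42, 4.84 and 3.32 CPM in WT replicates 1 to 4. The log2 fold changes were 0.24 ± 0.24 for Sox7, 0.16 ± 0.26 for Sox17 and -0.17 ± 0.20 for Sox18 (SE), each smaller than or about the size of its error. Tal1, a factor of blood and endothelial specification, had 11 to 27 reads per library and a log2 interval from -0.93 to 0.39.

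Among the 5 receptors edgeR called 0, and 1 had an unadjusted p below 0.05, with log2 fold changes from -0.06 to 0.24. Gpr116, an adhesion receptor now named Adgrf5 and the only one of the 34 on chromosome 17, which also carries C3, had 16.6, 22.4, 22.6 and 21.6 CPM in C3 KO replicates 1 to 4, and 18.2, 18.9, 16.4 and 16.6 CPM in WT replicates 1 to 4. C3 KO replicate 1 lay among the WT-labelled libraries and the other C3 KO-labelled libraries lay above them. Its log2 fold change was 0.24 ± 0.10 (SE, edgeR adjusted p = 0.11), and without C3 KO replicate 1 it was 0.34 with an adjusted p = 0.0216, while leaving out other libraries gave adjusted p-values up to 0.268.

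Eltd1, now Adgrl4, an adhesion receptor that rises in growing vessels, stood at 12.9, 16.4, 14.3 and 14.1 CPM in C3 KO replicates 1 to 4, and at 12.6, 13.6, 13.1 and 11.6 CPM in WT replicates 1 to 4. C3 KO replicate 1 fell inside the WT range, and the log2 fold change was 0.18 ± 0.11 (SE, edgeR adjusted p = 0.278). Robo4, an endothelial receptor that stabilises vessels, averaged 4.83 ± 0.798 CPM in C3 KO-labelled and 4.13 ± 0.321 CPM in WT-labelled libraries (SD, n = 4 each). Eng, the endothelial TGF-beta co-receptor endoglin, averaged 14.3 ± 0.635 CPM under the C3 KO label and 14.5 ± 2.10 CPM under the WT label. S1pr1, the sphingosine-1-phosphate receptor that restrains sprouting, averaged 8.16 ± 1.23 CPM in C3 KO-labelled and 8.48 ± 1.12 CPM in WT-labelled libraries. Eng overlaps Fpgs on the other strand and is uncertain for that reason.

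The 3 transport and permeability genes are known as marks of barrier maturation, and edgeR called 0 of them, with 0 unadjusted p-values below 0.05. Mfsd2a, a lipid transporter that holds down transcytosis in barrier endothelium, had 7.64, 8.02, 10.8 and 8.07 CPM in C3 KO replicates 1 to 4, and 7.12, 6.29, 9.25 and 9.29 CPM in WT replicates 1 to 4. Its log2 fold change was 0.11 ± 0.15 (SE, edgeR adjusted p = 0.678) with overlapping ranges. Slc38a5, a glutamine transporter that depends on norrin signalling in mouse retinal vessels, had 4.07, 8.74, 6.55 and 6.42 CPM in C3 KO replicates 1 to 4, and 7.53, 6.52, 5.16 and 5.07 CPM in WT replicates 1 to 4. C3 KO-labelled libraries gave both its lowest and its highest value, and the log2 fold change was 0.08 ± 0.19 (SE, edgeR adjusted p = 0.827). Slc38a5 is the only one of the 34 on the X chromosome. It was called in 0 of 19 alternative fits, among them 1 with the level of Y-linked genes as a covariate. That level correlated with the label at 0.73, so the fit separates sex and label poorly.

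Plvap, the diaphragm protein of fenestrated and immature endothelium, which choroidal capillaries also carry, stood at 4.53, 3.85, 3.55 and 4.89 CPM in C3 KO replicates 1 to 4, and at 3.74, 2.27, 4.20 and 2.29 CPM in WT replicates 1 to 4. WT replicates 2 and 4 lay below all C3 KO-labelled libraries, while WT replicates 1 and 3 lay among them. The log2 fold change was 0.42 ± 0.21 (SE, edgeR adjusted p = 0.196), with a 95% interval from -0.02 to 0.85. Because a ratio within a library does not depend on scaling, Plvap was also set against Cldn5. The ratio of Plvap to Cldn5 reads was 0.228, 0.157, 0.128 and 0.167 in C3 KO replicates 1 to 4, and 0.123, 0.0793, 0.160 and 0.102 in WT replicates 1 to 4. On the log2 scale the ratio averaged -2.59 ± 0.344 in C3 KO-labelled and -3.15 ± 0.428 in WT-labelled libraries (SD, n = 4 each), a difference of 0.56 (exact permutation test, 2-sided, p = 0.0857, where the smallest p that 4 against 4 libraries allow is 0.0286). For Mfsd2a over Cldn5 the reads ratio was 0.384, 0.328, 0.389 and 0.275 in C3 KO replicates 1 to 4, and 0.234, 0.220, 0.352 and 0.414 in WT replicates 1 to 4. The log2 ratios differed by 0.21 (exact permutation test, 2-sided, p = 0.4). Neither ratio separated the labels. Pigment epithelium and melanocyte markers, which a dissection could bring along with choroid, moved with the labels, with a list score of 1.00 to 1.35 under the C3 KO label and -0.30 to 0.33 under the WT label. Their part in the Plvap values was not tested.

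**Figure D3:**
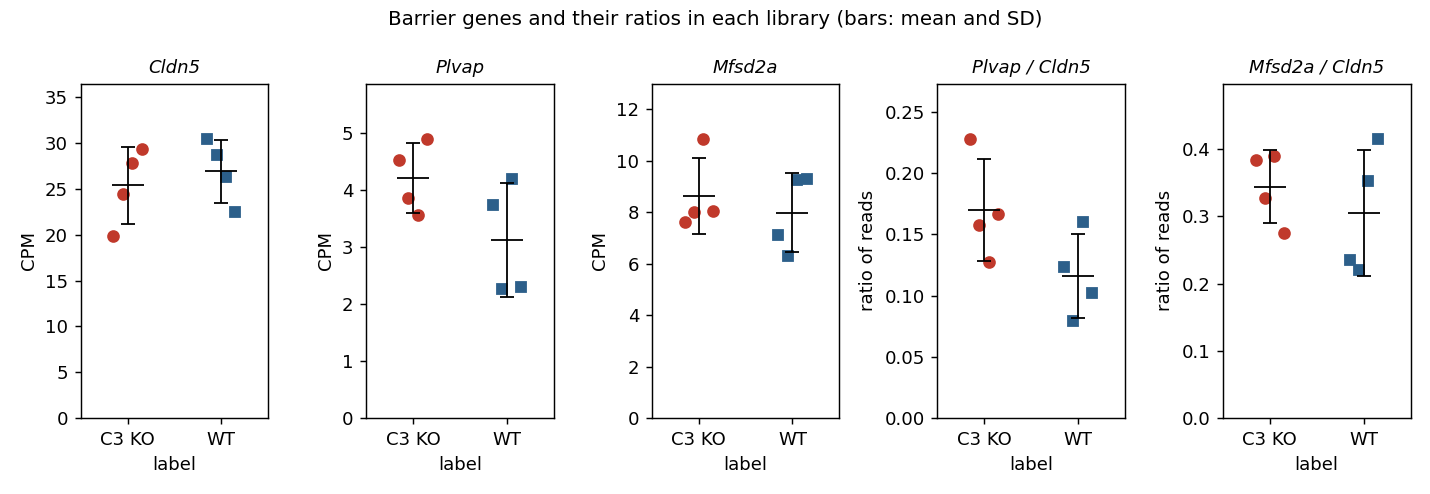
Levels of Cldn5, Plvap and Mfsd2a in CPM, and the ratios of Plvap and Mfsd2a reads to Cldn5 reads, in each library labelled C3 KO (red circles) and WT (blue squares), with mean and SD (n = 4 each). In all 5 panels the points of the labels overlap.

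Among the 5 intracellular signalling genes 1 was called (20%, against 14.3% of all genes). All 5 had positive log2 fold changes, against 50.9% of all genes, and some were small beside their errors. Arhgef15 encodes a guanine nucleotide exchange factor of endothelial cells that is also known from neurons in the mouse. It stood at 28.2, 31.2, 30.0 and 35.7 CPM in C3 KO replicates 1 to 4, and at 25.4, 21.5, 25.6 and 26.1 CPM in WT replicates 1 to 4, so every C3 KO-labelled library lay above every WT-labelled one. The mean was 31.3 ± 3.22 CPM under the C3 KO label and 24.6 ± 2.12 CPM under the WT label (SD, n = 4 each), a 1.27-fold rise (log2 0.34, SE 0.09, edgeR adjusted p = 0.00892). When C3 KO replicate 4 was left out, the call was lost (log2 0.27, adjusted p = 0.0626), and it held when each of the other 7 libraries was left out. With the level of Y-linked genes as a covariate the log2 fold change stayed 0.34 and the adjusted p was 0.153, and with 1 surrogate variable the values were 0.24 and 0.262. The Y-linked level correlated with the label at 0.73, and the surrogate variable at 0.68 in absolute value. Both fits thus separate covariate and label poorly. On log2(RPKM + 1) by limma the adjusted p was 0.0629. Some markers of neurons also moved with the labels, and whether the Arhgef15 reads came from endothelium or neurons was not tested.

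Nos3, the endothelial nitric oxide synthase, had 6.62, 6.61, 6.77 and 6.93 CPM in C3 KO replicates 1 to 4, and 6.46, 4.54, 6.96 and 5.01 CPM in WT replicates 1 to 4. The C3 KO-labelled libraries were close together within the upper part of the WT range, and the log2 fold change was 0.22 ± 0.15 (SE, edgeR adjusted p = 0.354). Rasip1, a Ras-interacting protein needed for vessel lumens, averaged 11.6 ± 2.63 CPM under the C3 KO label and 10.04 ± 1.91 CPM under the WT label (SD, n = 4 each). On the other strand, Nos3 overlaps Atg9b and an antisense gene, and Rasip1 overlaps antisense genes. Rasip1 also overlaps Izumo1 on its own strand, where strand cannot separate the reads. Ushbp1 averaged 2.31 ± 0.703 CPM in C3 KO-labelled and 2.23 ± 0.438 CPM in WT-labelled libraries. Myct1 averaged 1.29 ± 0.269 CPM under the C3 KO label and 0.991 ± 0.421 CPM under the WT label. The log2 fold changes were 0.04 ± 0.26 for Ushbp1 and 0.38 ± 0.34 for Myct1 (SE).

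Differences between libraries of one label were shared by many of the 34 genes. Averaged over the genes on the log2 scale and set relative to the mean of the WT-labelled libraries, the endothelial level was -0.02, 0.11, 0.15 and 0.18 in C3 KO replicates 1 to 4, and 0.12, 0.01, 0.05 and -0.18 in WT replicates 1 to 4. The labels overlapped, and the low libraries were C3 KO replicate 1 and WT replicate 4. C3 KO replicate 1 had the lowest value of its label for 20 of 34 genes, and WT replicate 4 for 19 of 34. WT replicate 4 was also the lowest of its label in the pericyte and smooth muscle score, at -0.26, against 0.07 to 0.10 in the other WT-labelled libraries. C3 KO replicate 1 was lowest there too, at -0.17 against -0.0024 to 0.10 in the other C3 KO-labelled libraries. Among the lists below, WT replicate 4 was lowest of its label for pigment epithelium (-0.30), red blood cell (-0.51) and astrocyte (-0.27) genes. The same held for microglia, retinal neuron and further barrier genes. It was not lowest for fibroblast (0.21) or further endothelial genes (-0.08). C3 KO replicate 1 was also lowest for pigment epithelium, fibroblast, further barrier and further endothelial genes. It was not lowest for red blood cell, microglia, astrocyte or neuron genes. Without WT replicate 4 the median log2 fold change of the 34 genes was 0.04, without C3 KO replicate 1 it was 0.18, and with all libraries 0.10. Leaving out WT replicate 3, the WT-labelled library with the highest Y-linked level and the lowest Xist, left it at 0.10 with 1 gene called. Every remaining WT-labelled library then lay below the C3 KO-labelled ones in Y-linked level, so that fit cannot tell sex from label.

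**Figure D4:**
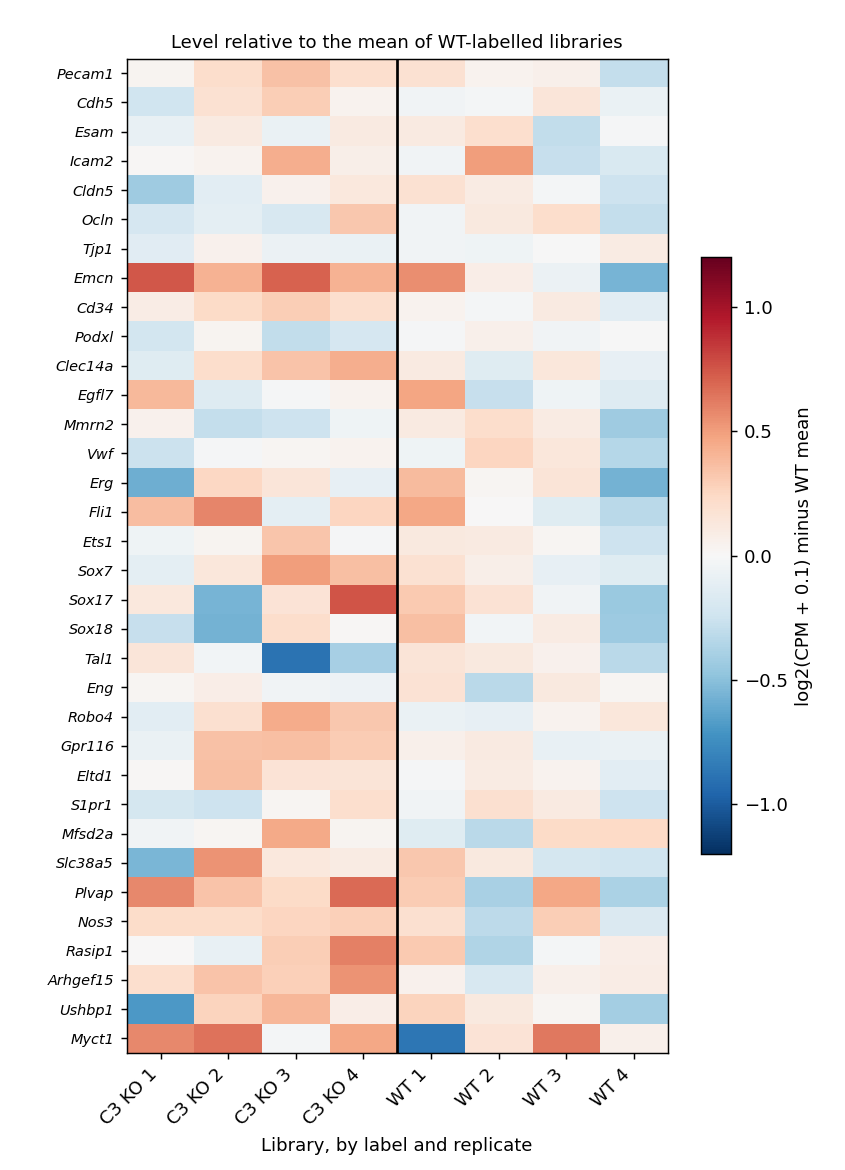
Level of each of the 34 genes (rows) in each library (columns, C3 KO label on the left, WT label on the right), as log2(CPM + 0.1) minus the mean of the WT-labelled libraries. WT replicate 4 is blue for many genes at once, with the lowest value of its label for 19 of 34.

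Further endothelial genes were read beside the 34. Of 22 further endothelial genes listed, 20 were in the count table, and 1 was called higher and 0 lower (5.00%, against 14.3% of all genes), with a median log2 fold change of 0.06. Tek, which encodes the Tie2 receptor for angiopoietins, was that gene, at 13.4 ± 2.37 CPM in C3 KO-labelled and 9.46 ± 1.36 CPM in WT-labelled libraries (SD, n = 4 each, edgeR adjusted p = 0.0151). In C3 KO replicate 1 Tek was at 10.1 CPM, inside the WT range of 7.85 to 11.1 CPM. The Tek call was lost when C3 KO replicate 3, C3 KO replicate 4 or WT replicate 4 was left out, with adjusted p-values up to 0.0661. The adjusted p of Tek was 0.309 with the Y-linked covariate, 0.376 with 1 surrogate variable, and 0.0669 and 0.0712 by limma on log2(RPKM + 1) and log2(RPKM + 0.1). The VEGF receptor gene Kdr, made by neural progenitors as well as endothelium, averaged 232 ± 26.1 CPM in C3 KO-labelled and 260.0 ± 34.7 CPM in WT-labelled libraries and was not called (edgeR adjusted p = 0.312). The score of these 20 genes ran from -0.10 to 0.12 under the C3 KO label and from -0.10 to 0.11 under the WT label.

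Of 24 further barrier and tight junction genes, all in the table, 3 were called higher and 4 lower (29.2%, against 14.3% of all genes). Their median log2 fold change was -0.02. Of these 7 calls, 4 held without C3 KO replicate 3, 4 without WT replicate 2, and 5 or 6 without any other single library. With the Y-linked covariate 3 held, and with 1 surrogate variable 2. Slco1a4, an organic anion transporter of brain capillaries, rose to 5.40 ± 0.465 CPM in C3 KO-labelled libraries, against 1.74 ± 0.503 CPM in WT-labelled ones (SD, n = 4 each), for a log2 fold change of 1.63 with an SE of 0.21 (edgeR adjusted p = 1.86e-05). Itm2a, a membrane protein enriched in brain endothelium, fell to 45.7 ± 1.16 CPM, against 56.8 ± 2.89 CPM in WT-labelled libraries (edgeR adjusted p = 0.00115). Many genes of this list are made by neurons, glia or pigment epithelium too, and the cells behind these reads were not tested.

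Markers of other cell types were read against the 14.3% of all genes called. Of 15 pigment epithelium and melanocyte markers edgeR called 11 higher and 0 lower, with a summed level of 305 to 334 CPM under the C3 KO label and 110.5 to 169 CPM under the WT label. Of 6 measured fibroblast and sclera genes, 4 were called higher, with sums of 13.4 to 19.9 CPM in C3 KO-labelled and 6.70 to 10.1 CPM in WT-labelled libraries. Of 12 microglia and macrophage genes 2 (16.7%) were called higher, a share near that of all genes. Their sums were 171 to 207 CPM under the C3 KO label and 131 to 171 CPM under the WT label. All 12 had positive log2 fold changes, with a median of 0.31. An unadjusted edgeR p below 0.05 was seen for 6 of 12 (50%), against 28.6% of all genes. Their scores overlapped only through WT replicate 1, at 0.346 against 0.342 in C3 KO replicate 2. All 5 red blood cell genes in the table were called lower, with sums of 18.1 to 23.2 CPM under the C3 KO label and 28.5 to 51.2 CPM under the WT label. Globin genes among them are nearly identical copies and so uncertain. Pericyte and smooth muscle genes had 2 of 14 called lower, the same 14.3% as all genes, with a median log2 fold change of 0.01 and overlapping scores. Astrocyte genes had 2 of 5 called higher, and retinal neuron genes had 3 of 8 called higher and 2 lower. The scores of both lists overlapped between the labels. In the astrocyte list C3 KO replicate 2 was at -0.16, inside the WT range of -0.27 to 0.12. The other C3 KO-labelled libraries were at 0.46 to 0.52. No marker of these lists was at 0 reads in any library. Their part in the endothelial values was not tested.

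**Figure D5:**
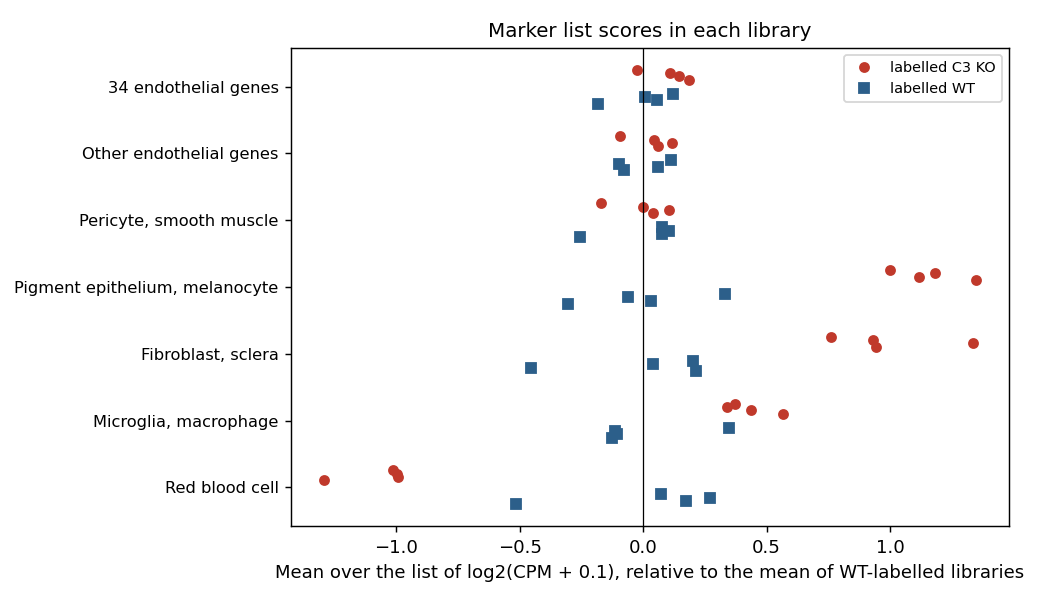
Mean over each marker list of log2(CPM + 0.1) relative to the mean of the WT-labelled libraries (x axis), in each library labelled C3 KO (red circles) and WT (blue squares). The labels overlap for the 34 endothelial genes, the other endothelial genes and the pericyte list, and lie apart for the pigment epithelium, fibroblast and red blood cell lists. In the microglia list they overlap only through WT replicate 1.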

How the data were processed

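Polyadenylated RNA of retinas at postnatal day 5 was sequenced from directional libraries, per the labels' protocols. The authors deposited whole-number read counts per gene, and STAR, HTSeq and the builds mm9 and NCBIM37 are listed in the submitters' processing notes, without versions. A second table of log2 RPKM values was deposited by the authors. Of the offsets tried, those values followed log2 of the count plus 2 reads most closely, so they slightly overstate low levels, and they were used after conversion to a linear scale.

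The test of the counts was run with edgeR 4.0.16 under R 4.3.3. Genes passing filterByExpr (15850 of 16109) were scaled by TMM and compared by the robust quasi-likelihood test, 4 libraries labelled C3 KO against 4 labelled WT, with Benjamini-Hochberg adjustment over all genes tested. The SE and 95% interval come from the fold change and its F statistic. The procedure was tested on simulated counts drawn independently for each gene, which lack the shared library differences described above. No pair of libraries of one label agreed within sampling noise (chi-square per degree of freedom at least 3.72). Fold changes are C3 KO over WT labels.

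The 34 members and all gene lists were chosen with earlier results of these data known. All members could be named. Every library's value is given for called members, for the 2 smallest p-values of each role group, and for Pecam1, Cdh5, Cldn5, Plvap, Mfsd2a, Slc38a5 and the SOXF genes. Of other lists, C3 and at most the 3 called genes with the smallest p could be named. One such gene is not reported here. Kdr and Xist were named after their values were seen. Overlaps were read from GENCODE M21, and promoter windows from RefSeq. Alternatives used DESeq2 1.42.0, limma 3.58.1 and sva 3.50.0.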

Additional observations from a re-analysis of the deposited data

Results flagged for a closer look

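Each label has 4 libraries, and a gene was singled out where 1 library stood apart from the other 3 of its label by more than 0.829 of the whole range. Of 74 groups examined, 5 met this, where chance gives about 1 in 20. Icam2 was 3.10 CPM in the library labelled C3 KO replicate 3, with the next C3 KO-labelled library at 2.39 CPM. Ocln was 3.92 CPM in C3 KO replicate 4, against 2.86 CPM in the next. Gpr116 was 16.6 CPM in C3 KO replicate 1, below 21.6 CPM in the next library. Mfsd2a was 10.8 CPM in C3 KO replicate 3, against 8.07 CPM in the next. Arhgef15 was 21.5 CPM in WT replicate 2, below 25.4 CPM in the next WT-labelled library.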

How the results depend on the processing

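With 19 alternatives, the median log2 fold change of the 34 genes stayed positive, from 0.0011 with 1 surrogate variable to 0.178 without C3 KO replicate 1, and 17 of 34 genes kept their sign throughout. No value reversed its call. The number of endothelial genes called, 1 in the main test, was 0 with limma on log2(RPKM + 1), limma on log2(RPKM + 0.1), Y-linked genes as a covariate or 1 surrogate variable, and between 0 and 2 in the leave-one-out fits. Over all genes, the 2269 calls became 1509 with limma on log2(RPKM + 1), 1502 on log2(RPKM + 0.1), 535 with the Y-linked covariate and 453 with 1 surrogate variable, and lay between 1305 and 2543 in the leave-one-out fits. Both covariates were correlated with the label (0.73 and 0.68 in absolute value), which limits what those fits can show. The cause of these changes was not tested. Same-numbered libraries were not treated as paired. Correlations of their deviations ran from -0.0797 to 0.113, which cannot show whether they shared a litter or batch. With a replicate block 2400 genes and 3 endothelial genes were called, Arhgef15, Emcn and Podxl. With low counts, genes such as Tal1 and Myct1 could differ by over 1.5-fold undetected. Arhgef15 was called in 14 of 19 alternatives. Both ratios kept their sign, and no exact permutation p passed the threshold. Under the replicate block these were 0.25 and 0.5, but 4 pairs allow no 2-sided p below 0.125, so that test could not have passed.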
